A study of Mus musculus with 9 samples.

Results

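Park7 and 8 genes that adjoin it on mouse chromosome 4 were followed in the midbrain of mice with a targeted DJ-1 allele. The 9 genes, chosen by symbol for their position, were Rere, Slc45a1, Errfi1, Park7, Tnfrsf9, Uts2, Per3, Vamp3 and Camta1. They are 9 of the 26602 genes with at least 1 count, and the choice was made with earlier results of these data known. Midbrain tissue including the substantia nigra was taken from 4 DJ-1+/+ mice (wild type) and 5 DJ-1-/- mice (knockout), each aged 3 to 4 months, with 1 library per mouse. The DJ-1-/- mice were homozygous for a targeted allele of Park7 marked by a Neo cassette, present in every cell of the body, and both genotypes came from breeding of heterozygous animals on a C57BL/6 background reached by backcrossing. Which exons the allele lacks and the sex of each mouse are not given in the sources used here. RNA was read from the 3' end of polyadenylated transcripts with unique molecular identifiers (UMIs), so that 1 count stands for about 1 captured molecule, whatever the length of the transcript.

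Park7 encodes DJ-1, a small redox-sensitive protein whose loss causes a recessive, early-onset form of Parkinson's disease. A targeted allele is inherited together with the stretch of chromosome around it, so genes close to the target travel with the mutation through backcrossing. The neighbours of Park7 have unrelated roles: Rere is a nuclear co-regulator of the atrophin family, Slc45a1 a sugar transporter of the brain, Errfi1 a feedback inhibitor of the epidermal growth factor receptor, Tnfrsf9 a costimulatory receptor of activated T cells, Uts2 the precursor of the peptide urotensin 2, Per3 a period protein of the circadian clock, Vamp3 a SNARE of recycling endosomes, and Camta1 a calmodulin-binding transcription activator of neurons.

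The genes lie in the order of their starts as follows (GRCm38, chromosome 4, GENCODE M21). Rere runs from 150281646 to 150621966 on the plus strand, Slc45a1 from 150628572 to 150652174 on the minus strand and Errfi1 from 150853919 to 150868892 on the plus strand. Park7 itself runs from 150897133 to 150914437 on the minus strand with 10 annotated transcripts. Tnfrsf9, on the plus strand from 150914562 to 150946102, starts 125 bases from the outermost Park7 start and points away from it. Uts2 (150997097 to 151001810, plus strand), Per3 (151003652 to 151044665, minus strand) and Vamp3 (151047300 to 151057963, minus strand) lie within the extent of Camta1, which runs from 150917322 to 151861876 on the minus strand and also covers part of Tnfrsf9. None of the 9 genes shared an exonic base with another annotated gene. Whether reads were counted by strand is not given in the sources used here.

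The stretches of 250 bases before the annotated starts of 4 of these genes are shown 5' to 3', because they are the targeted gene, the pair of neighbours with the smallest p and the clock gene whose own motif is present. They come from RefSeq (GRCm38.p6), which held such a stretch for 7 of the 9 genes and not for Slc45a1 and Vamp3. The RefSeq start of Park7 lies inside the longer GENCODE gene. Capitals mark, on either strand, a GC box (GGGCGG) in Park7, CCAAT boxes (CCAAT) in Camta1 and D-boxes (TTATGTAA), the site of PAR bZIP clock output factors, in Per3, and none of the marked sites shares a base with another motif searched. The stretches were also searched for the E-box CACGTG, the CRE TGACGTCA and the TATA box TATAAA, and Rere held none of the 6 motifs.
Park7, chr4:150909922-150910171, minus strand: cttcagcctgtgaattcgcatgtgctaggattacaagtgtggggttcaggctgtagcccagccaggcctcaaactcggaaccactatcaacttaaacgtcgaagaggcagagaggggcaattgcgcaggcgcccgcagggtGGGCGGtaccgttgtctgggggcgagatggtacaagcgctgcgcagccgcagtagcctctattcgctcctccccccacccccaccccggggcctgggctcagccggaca
Camta1, chr4:151861769-151862018, minus strand: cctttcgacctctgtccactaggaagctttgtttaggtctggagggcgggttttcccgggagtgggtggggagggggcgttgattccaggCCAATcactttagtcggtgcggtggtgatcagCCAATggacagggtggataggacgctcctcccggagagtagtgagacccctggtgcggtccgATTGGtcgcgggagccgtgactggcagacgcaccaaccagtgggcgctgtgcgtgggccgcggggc
Rere, chr4:150281666-150281915, plus strand: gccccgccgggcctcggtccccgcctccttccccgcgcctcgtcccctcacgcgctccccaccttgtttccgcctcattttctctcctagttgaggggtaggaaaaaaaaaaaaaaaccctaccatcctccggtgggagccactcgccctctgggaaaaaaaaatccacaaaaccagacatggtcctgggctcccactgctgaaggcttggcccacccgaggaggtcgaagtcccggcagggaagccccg
Per3, chr4:151044666-151044915, minus strand: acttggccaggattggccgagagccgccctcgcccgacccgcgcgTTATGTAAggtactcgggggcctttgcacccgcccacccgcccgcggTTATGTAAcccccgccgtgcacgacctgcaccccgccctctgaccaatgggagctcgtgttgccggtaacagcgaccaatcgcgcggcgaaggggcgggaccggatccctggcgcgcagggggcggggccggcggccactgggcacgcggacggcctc

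GC content was 62.4% in Park7, 63.6% in Camta1, 61.6% in Rere and 72.4% in Per3, each above the upper quartile of 61.2% among 32851 RefSeq stretches of the same length (median 52.4%). Stretches below the lower quartile of 45.2% were those of Uts2 at 38.8%, of 1 of 2 Errfi1 starts at 38.0% and of 1 of 2 Tnfrsf9 starts at 43.2%. The single GC box of Park7 is common, since 32.7% of all stretches hold at least 1. Camta1 held 3 CCAAT boxes, as did Per3 and 1 of 2 Tnfrsf9 starts, and 10.1% of stretches hold 2 or more. Per3 also held 6 GC boxes and Camta1 held 1, and 16.7% of stretches hold 2 or more GC boxes. These sites in Per3 and the GC box of Camta1 are not in capitals. The pair of D-boxes in Per3 is rare, since 0.819% of stretches hold at least 1 D-box and 0.0183% hold 2 or more. These matches describe letters in a window and not sites in use.

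Between 841974 and 886085 UMIs were counted per wild-type library and between 967751 and 1098125 per knockout library, so every knockout library was the deeper one and depth and genotype cannot be told apart by splitting the libraries. Levels are given as counts per 1000000 UMIs of the library (cpm). At these depths 3 counts, taken as the least that can be shown, equal 2.73 to 3.56 cpm, which covers counting error only. All 7 genes of a dopaminergic neuron list were counted, 3 of them with an unadjusted p under 0.05, against 2.82% of all genes tested. Their summed level was 324 to 756 cpm in wild-type mice and 560 to 782 cpm in knockout mice. Their median log2 fold change, knockout against wild-type, was 0.40. Marker genes of 2 tissues outside the midbrain varied more. The 6 choroid plexus genes, all with an unadjusted p under 0.05, summed to 73.9 to 596 cpm in wild-type mice (the highest in replicates 4 and 1) and to 43.4 to 164 cpm in knockout mice, and 6 cerebellar neuron genes, 3 with such a p, to 162 to 850 cpm (the highest in replicate 1) and to 219 to 315 cpm. Of 4 forebrain genes tested, 1 had such a p. No gene of the microglia, astrocyte, oligodendrocyte and endothelium lists had such a p, the microglia genes summing to 386 to 413 cpm in wild-type mice and 384 to 423 cpm in knockout mice. The part of tissue composition in the results below was not tested beyond the values given beside them. Counts from Y-linked genes were present in 2 of 4 wild-type and 1 of 5 knockout libraries.

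Genotypes were compared with edgeR's quasi-likelihood test over the 18127 genes that had 10 counts or more when all 9 libraries were summed, and 8 of the 9 genes passed that filter, Tnfrsf9 being the exception. Of all genes tested, 2.82% had an unadjusted p under 0.05 in either direction with 1.27% lower and 1.55% higher in knockout mice. Of the 8 genes, 3 had an unadjusted p under 0.05, namely Park7, Camta1 and Rere, and all 3 were lower in knockout mice. Park7 alone kept a p under 0.05 once adjusted by Benjamini-Hochberg, which is 0.00552% of the genes tested (36 genes when low counts were not filtered out). Of the 7 neighbours tested, 4 had a negative and 3 a positive log2 fold change.

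**Figure D1:**
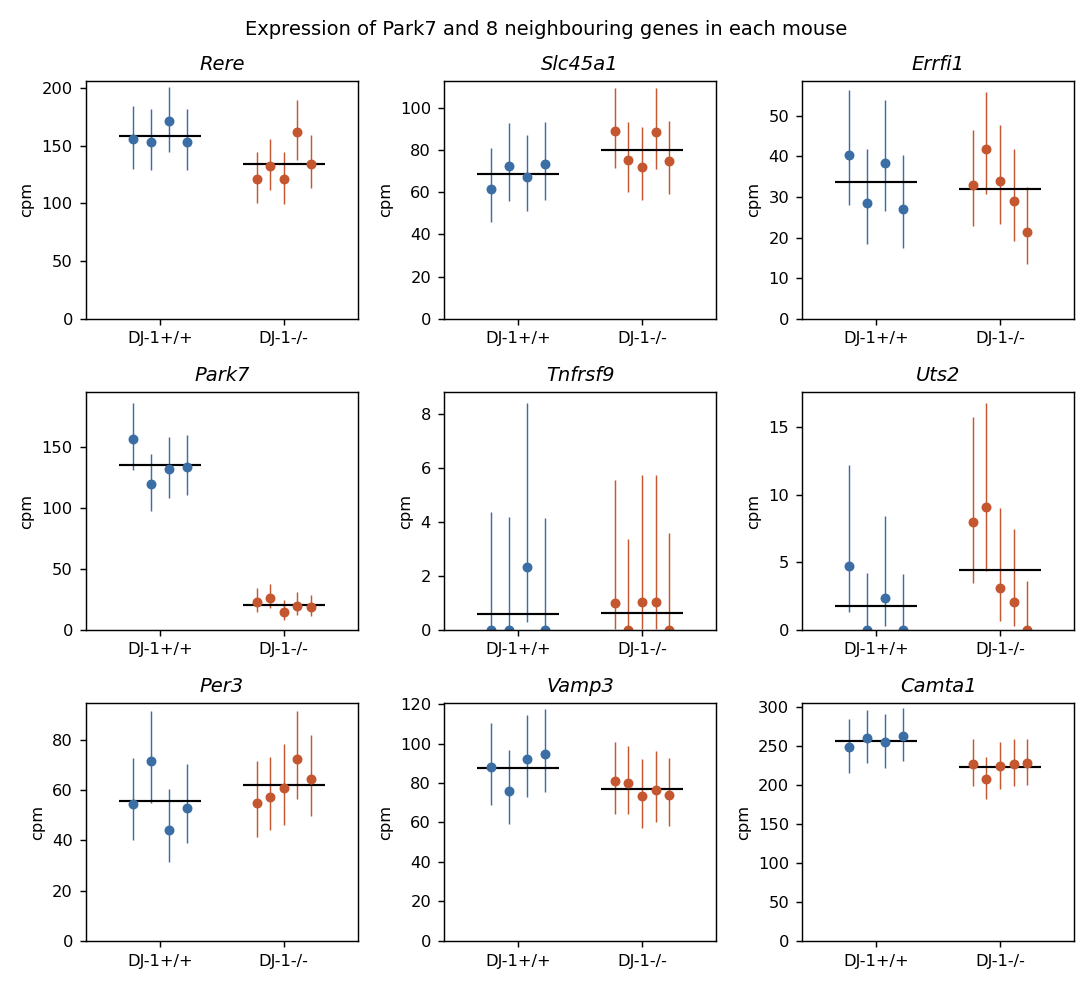
Level of each gene in each mouse, in cpm on the vertical axis, with wild-type mice (DJ-1+/+, blue, 4 points) and knockout mice (DJ-1-/-, orange, 5 points), replicates from left to right. Vertical lines are 95% Poisson intervals of each count and horizontal bars are group means; the genotypes do not overlap in the panels of Park7 and Camta1.

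Park7, the targeted gene, had 132, 105, 113 and 118 counts in the wild-type mice and 23, 29, 14, 19 and 19 counts in the knockout mice. Every knockout mouse thus stood far below every wild-type mouse, and none was at 0. The level was 135 ± 15.7 cpm (SD, n = 4) in wild-type mice and 20.4 ± 4.54 cpm (SD, n = 5) in knockout mice, or 15.1% of the wild-type mean. Mouse by mouse, the knockout levels were 17.0%, 19.5%, 10.7%, 14.5% and 13.7% of that mean. The Poisson intervals of these 5 shares ranged from 5.84% at the lowest bound to 28.1% at the highest, and all 5 intervals overlapped.

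The log2 fold change of Park7 was -2.71 (standard error 0.15, 95% interval -3.03 to -2.40, adjusted p = 7.44e-08 by edgeR), a fold of 0.153 with an interval of 0.123 to 0.190. The genotypes did not overlap in cpm, as for 1.25% of all genes tested. The exact permutation test of the difference in mean cpm gave a two-sided p of 0.0159, the lowest p possible with 4 and 5 mice. Since a 3' count reads only the end of the transcript, and the deleted part of the gene is not given, the counts that remain cannot be assigned to intact or altered transcripts.

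A ratio within each library gave the same picture without the use of library totals. Park7 supplied 19.4%, 15.3%, 16.4% and 16.7% of the counts of the 9 genes in the wild-type mice, and 3.61%, 4.19%, 2.39%, 2.89% and 3.01% in the knockout mice. The lowest wild-type share had an exact binomial interval of 12.7% to 18.2% and the highest knockout share one of 2.82% to 5.96%, so these did not meet. The mean shares were 16.9 ± 1.74% (SD, n = 4) and 3.22 ± 0.694% (SD, n = 5; exact permutation test, two-sided p = 0.0159). The other 8 genes together summed to 663 ± 7.91 cpm in wild-type mice and 613 ± 27.6 cpm in knockout mice (SD, n = 4 and 5; exact permutation test, two-sided p = 0.0317). Knockout replicate 4, at 659 cpm, lay within the wild-type range of 653 to 672 cpm, and the other 4 knockout mice lay below it. Camta1 (means of 257 cpm in wild-type and 223 cpm in knockout mice) and Rere (158 and 134 cpm) weighed most in this sum. Vamp3 and Errfi1 also had lower means in knockout mice, while Slc45a1, Per3 and Uts2 had higher ones. The sum therefore does not describe the 8 genes alike.

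Camta1, whose product binds calmodulin and DNA and acts in neurons, had the highest level of the 9 genes in both genotypes. It stood at 248, 260, 255 and 263 cpm in the wild-type mice and at 227, 208, 224, 227 and 228 cpm in the knockout mice. The genotypes did not overlap, as for 1.25% of all genes tested and, with knockout mice on the lower side, 0.585%. As raw counts they did overlap, at 209 to 233 in wild-type mice and 217 to 234 in the deeper knockout libraries, so the difference is one of level relative to the library. The means were 257 ± 6.51 cpm (SD, n = 4) and 223 ± 8.64 cpm (SD, n = 5), the knockout mean being 86.8% of the wild-type mean.

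In edgeR's fit Camta1 had a log2 fold change of -0.21 (standard error 0.06, 95% interval -0.34 to -0.07, unadjusted p = 0.00477), and the exact permutation test of cpm gave a two-sided p of 0.0159, the smallest this design allows. It did not pass adjustment over all genes (adjusted p = 0.9999). With counts thinned to the depth of the smallest library the log2 fold change was -0.22. Without wild-type replicates 1 and 4, the libraries with the most choroid plexus transcripts, it was -0.21. Of these, replicate 1 also had the most cerebellar transcripts (850 cpm), while replicate 4 (304 cpm) did not stand out for them. In a bulk tissue, fewer cells of a type and less RNA per cell cannot be told apart.

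Of the genes listed with Camta1, its paralogue Camta2 had a log2 fold change of -0.03 (standard error 0.08), and the calmodulin genes Calm2 and Calm3 had -0.11 and -0.07. No gene of these 3 reached an unadjusted p of 0.05 by edgeR. Each lay within a 95% interval that held 0, and the interval of Camta2 ran from -0.20 to 0.14.

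Rere, the atrophin-family co-regulator at the other side of Park7, stood at 156, 153, 171 and 153 cpm in the wild-type mice and at 121, 132, 121, 162 and 134 cpm in the knockout mice. Only knockout replicate 4 reached the wild-type range, and the other 4 knockout mice lay below it. The means were 158 ± 8.49 cpm (SD, n = 4) and 134 ± 16.9 cpm (SD, n = 5). EdgeR's test gave Rere a log2 fold change of -0.24 (standard error 0.09, 95% interval -0.43 to -0.05, unadjusted p = 0.0165, adjusted p = 0.9999). The exact permutation test of cpm gave a two-sided p of 0.0635. Without wild-type replicate 3, the highest of its group, the log2 fold change was -0.20 with an unadjusted p of 0.0624 in edgeR's test.

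The 4 genes listed with Rere encode its fellow atrophin Atn1, the histone deacetylases Hdac1 and Hdac2 that atrophins recruit, and the nuclear receptor Nr2f2. All 4 had negative log2 fold changes, with a median of -0.19 against 0.01 over all genes tested. Those of Atn1 (-0.21, standard error 0.09, unadjusted p = 0.0411 in edgeR's test) and Hdac2 (-0.20, standard error 0.08, unadjusted p = 0.0452) were under 0.05 before adjustment, and those of Hdac1 (-0.18, standard error 0.12) and Nr2f2 (-0.10, standard error 0.09) were not. Of all genes tested 1.27% were called on the lower side. The calls of Atn1 and Hdac2 were not kept with DESeq2, without wild-type replicate 3 or without knockout replicate 1. At most 1 of the 2 was kept without the filter on low counts, with Xist as a covariate or with thinned counts. The same held without wild-type replicate 2 or 4, without knockout replicate 2 or 3, and without wild-type replicates 1 and 4 together. Hdac2 lay between 100.0 and 107 cpm in wild-type mice and between 86.1 and 96.5 cpm in knockout mice, without overlap, as for 1.25% of all genes tested. Atn1 overlapped between genotypes.

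Slc45a1, the sugar transporter beside Rere, stood at 61.8, 72.7, 67.5 and 73.4 cpm in the wild-type mice and at 89.1, 75.6, 72.2, 88.9 and 75.03 cpm in the knockout mice. Knockout replicate 3 lay inside the wild-type range and the other 4 lay above it. The means were 68.8 ± 5.40 cpm (SD, n = 4) and 80.2 ± 8.15 cpm (SD, n = 5). EdgeR's test put the log2 fold change at 0.22 (standard error 0.11, 95% interval -0.02 to 0.45, unadjusted p = 0.0692). The exact permutation test of cpm gave a two-sided p of 0.0476, which was not kept in 8 of 10 alternatives (each of 8 of the 9 mice left out in turn). Its paralogues Slc45a3 and Slc45a4 had log2 fold changes of 0.24 (standard error 0.36) and 0.00 (standard error 0.13), and neither they nor the glucose transporters Slc2a1 and Slc2a3 had an unadjusted p under 0.05.

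Errfi1, also known as Mig6 and the gene nearest to Park7 on its 3' side, stood at 40.4, 28.4, 38.4 and 27.1 cpm in the wild-type mice and at 33.03, 41.9, 34.04, 28.9 and 21.4 cpm in the knockout mice. The genotypes overlapped over almost their whole ranges, with a log2 fold change of -0.07 (standard error 0.21, 95% interval -0.52 to 0.37) whose sign turned to 0.030 without wild-type replicate 1 and to 0.039 without knockout replicate 5. The receptor it inhibits, Egfr, had a log2 fold change of -0.14 (standard error 0.16). No unadjusted p under 0.05 was found for the 11 receptor, ligand and feedback genes listed with Errfi1. The ligand gene Egf came nearest at -1.36 (standard error 0.69, unadjusted p = 0.0642 in edgeR's test), at a low level of 6.33 ± 3.50 cpm (SD, n = 4) in wild-type mice and 2.40 ± 2.27 cpm (SD, n = 5) in knockout mice.

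**Figure D2:**
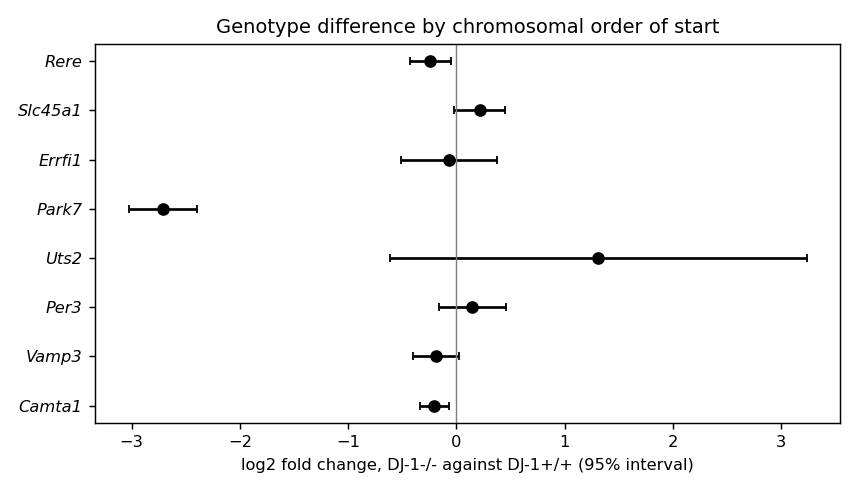
Log2 fold change of the 8 genes tested, knockout against wild-type (horizontal axis), in chromosomal order of their starts from top to bottom, with bars for the 95% interval of edgeR's quasi-likelihood fit. Park7 stands at -2.71 and the intervals of Rere and Camta1 also lie below 0, while those of the other 5 genes cross it.

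Tnfrsf9, the receptor 4-1BB, was at the edge of detection although its annotated start is the closest to that of Park7. It had 2 counts in wild-type replicate 3 and none in the other wild-type mice, and 1 count each in knockout replicates 1, 3 and 4. Both genotypes were under the floor of 3 counts in every library, so no fold can be given. Its ligand gene Tnfsf9 had a log2 fold change of 0.03 (standard error 0.90). Transcripts of T cells, in which the receptor is best known, were also low, and 5 T cell genes summed to 3.49 to 18.1 cpm in wild-type mice and 3.003 to 17.5 cpm in knockout mice.

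Uts2, which encodes a peptide known from cholinergic motor neurons, had 4, 0, 2 and 0 counts in the wild-type mice and 8, 10, 3, 2 and 0 counts in the knockout mice. It was thus above the floor in 1 of 4 wild-type and 2 of 5 knockout mice, and both genotypes held mice at 0. The log2 fold change was 1.31 (standard error 0.91, 95% interval -0.61 to 3.24, unadjusted p = 0.168 in edgeR's test), an interval too wide to place the genotypes in order. It lay between 0.87 (without knockout replicate 2) and 2.38 (without wild-type replicate 1, unadjusted p = 0.0543) with single mice left out. The receptor gene Uts2r had 3.48 ± 1.92 cpm (SD, n = 4) in wild-type and 2.20 ± 1.72 cpm (SD, n = 5) in knockout mice. The paralogue Uts2b had 9, 0, 13 and 0 counts in wild-type mice and 13, 20, 12, 7 and 0 counts in knockout mice, with a log2 fold change of 0.66 (standard error 0.80). The same 3 mice, wild-type replicates 2 and 4 and knockout replicate 5, had no count of either urotensin gene.

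**Figure D3:**
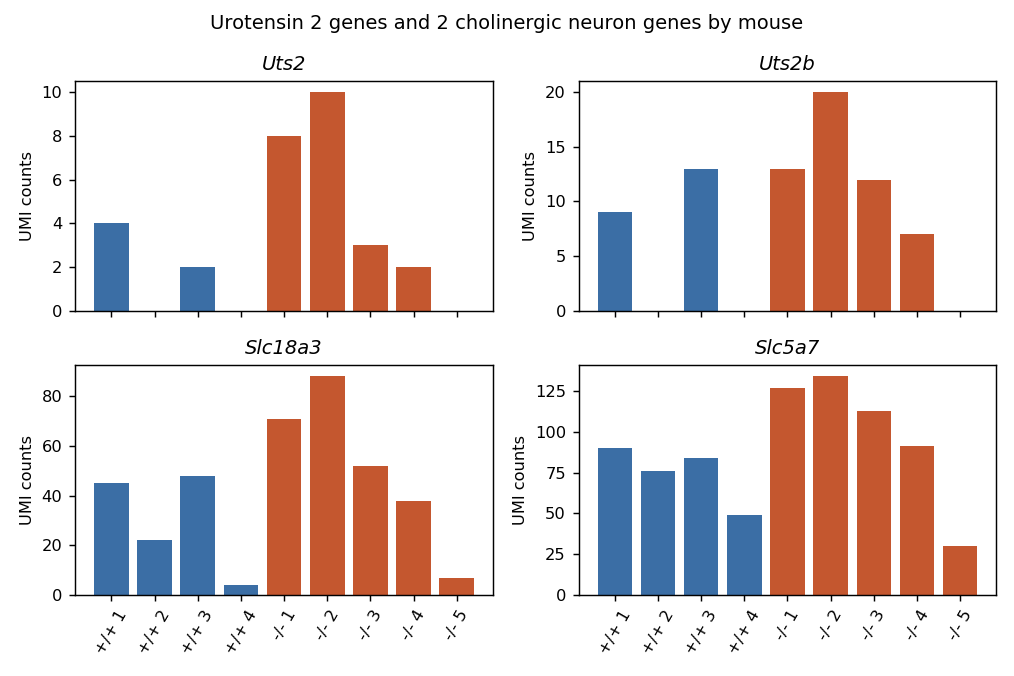
UMI counts (vertical axes, linear and starting at 0) of Uts2, its paralogue Uts2b and of Slc18a3 and Slc5a7, genes of cholinergic neurons chosen after the urotensin counts were seen, in each wild-type (blue) and knockout (orange) mouse along the horizontal axis. Uts2 and Uts2b are at 0 in the same 3 mice, where Slc18a3 has 22, 4 and 7 counts. Slc18a3 and Slc5a7 are among the 4 of 7 listed genes whose 3 lowest levels fell in these mice. Chat, Isl1 and Phox2a, not shown, did not follow this.

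Per3 stood at 54.6, 71.6, 44.2 and 53.0 cpm in the wild-type mice and at 55.1, 57.4, 60.9, 72.3 and 64.3 cpm in the knockout mice. The wild-type range, set by replicates 2 and 3, held 4 of the 5 knockout mice. Per3 had a log2 fold change of 0.15 (standard error 0.15, 95% interval -0.16 to 0.46, unadjusted p = 0.331 in edgeR's test), and it lay between 0.05 and 0.28 with single mice left out.

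Of the 20 clock genes listed with Per3, 6 had positive and 14 negative log2 fold changes, and 1, the period gene Per1, had an unadjusted p under 0.05 (5.0% of them against 2.82% of all genes). Per1 stood at 38.0, 43.2, 29.1 and 53.0 cpm in the wild-type mice and at 47.0, 62.8, 53.6, 50.6 and 55.5 cpm in the knockout mice. Only wild-type replicate 4 reached the knockout range. Its log2 fold change was 0.40 (standard error 0.17, unadjusted p = 0.0314 in edgeR's test, adjusted p = 0.9999), while the remaining period gene, Per2, had -0.04 (standard error 0.25). The call of Per1 was not kept with DESeq2, without wild-type replicate 1 or 3, or without knockout replicate 2 or 5. The PAR bZIP factors that bind D-boxes, the motif in capitals in the Per3 sequence, had log2 fold changes of 0.19 in Dbp, 0.03 in Tef and -0.04 in Hlf, and the D-box repressor Nfil3 had -0.08, all with an unadjusted p above 0.05. The hour at which the mice were killed, on which the level of clock genes depends, is not given in the sources used here.

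Vamp3, a SNARE that brings recycling endosomes to the cell surface, stood at 87.9, 76.1, 91.9 and 94.8 cpm in the wild-type mice and at 81.1, 80.1, 73.2, 76.5 and 74.1 cpm in the knockout mice. Replicate 2 was the one wild-type mouse within the knockout range. The means were 87.7 ± 8.20 cpm (SD, n = 4) and 77.0 ± 3.52 cpm (SD, n = 5), and the exact permutation test gave a two-sided p of 0.0635. The log2 fold change was -0.19 (standard error 0.10, 95% interval -0.40 to 0.02, unadjusted p = 0.0918 in edgeR's test). It was -0.26 without wild-type replicate 2 (unadjusted p = 0.0325 in edgeR's test), -0.15 without wild-type replicate 4 (unadjusted p = 0.237) and -0.12 without wild-type replicates 1 and 4 together (unadjusted p = 0.395). The synaptic paralogues Vamp1 and Vamp2 had log2 fold changes of 0.02 (standard error 0.12) and 0.00 (standard error 0.10). No unadjusted p under 0.05 was found for the 12 SNARE genes measured of the 13 listed, and Vamp7 was not analysed here.

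In all, 60 of the 61 listed partners and paralogues were tested, 21 with positive and 39 with negative log2 fold changes and a median of -0.04. Per1, Atn1 and Hdac2 were the 3 with an unadjusted p under 0.05, which is 5.0% against 2.82% of all genes tested, and none passed adjustment. That count was unsteady. It was 0 with DESeq2 and without wild-type replicate 3, 1 without knockout replicate 1 or replicate 2, and 5 without knockout replicate 4.

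**Figure D4:**
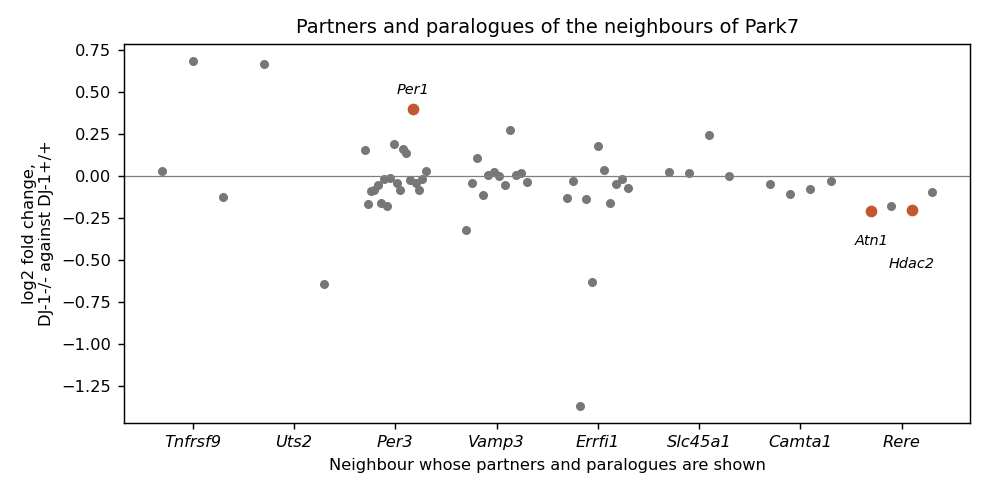
Log2 fold change, knockout against wild-type (vertical axis), of the 60 partners and paralogues tested, grouped by the neighbour of Park7 they were listed with (horizontal axis). Orange points are the 3 genes with an unadjusted p under 0.05, Per1 at 0.40, Atn1 at -0.21 and Hdac2 at -0.20, and grey points are the others.

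Around the 9 genes, the annotation holds 32 genes within 1 Mb of the Park7 gene body, of which 22 had a count and 16 were tested. Apart from Park7, 2 of these 15 genes had an unadjusted p under 0.05, or 13.3% against 2.82% of all genes tested. Both were listed neighbours (Camta1 and Rere), and the call of Rere was not kept without wild-type replicate 3. The 8 tested genes that are not among the 9 gave 0 at that threshold in edgeR's test, and those with the smallest p were H6pd (-0.59, standard error 0.38), Eno1 (-0.23, standard error 0.25) and Gm37795 (0.54, standard error 0.60). With Park7 included the count was 3, and it was 5 without wild-type replicate 2 and 2 without wild-type replicate 3.

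Farther away the shares were near the background. Of 123 genes at 1 to 5 Mb, 2 were higher and 2 lower in knockout mice at an unadjusted p under 0.05 (3.25%), of 53 genes at 5 to 10 Mb 2 were higher (3.77%), and of 825 genes on the rest of the chromosome 10 were higher and 8 lower (2.18%). The median log2 fold change was -0.02 within 1 Mb without Park7 and between 0.01 and 0.02 in the other windows, against 0.01 over all genes. With 15 genes in the innermost window, 1 gene makes up a large share of it.

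**Figure D5:**
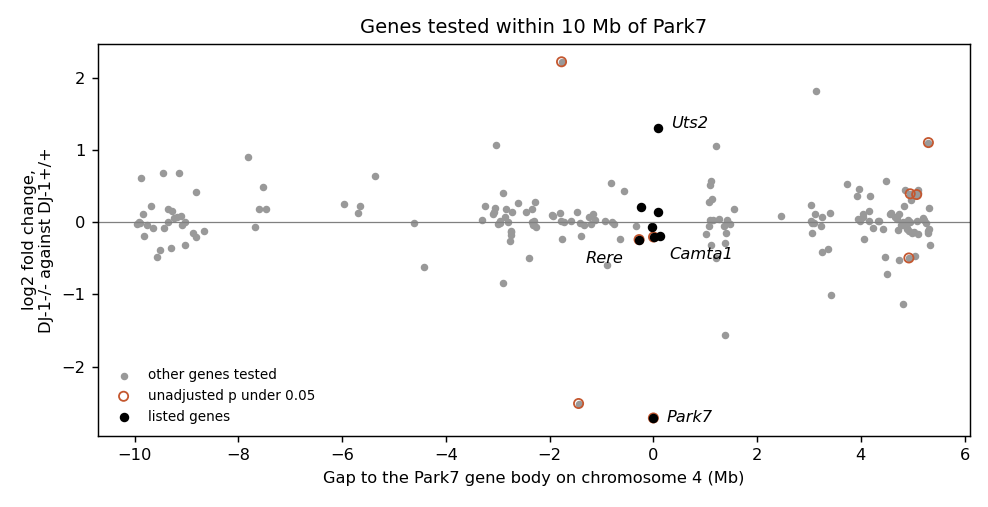
Log2 fold change, knockout against wild-type (vertical axis), of the genes tested within 10 Mb of Park7, against the gap to the Park7 gene body in Mb (horizontal axis). Black points are the listed genes, grey points the others and orange rings mark an unadjusted p under 0.05. Park7 at -2.71 stands apart, and Rere and Camta1 lie close to the line at 0.

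The levels can be set in order across genes, since each captured molecule gives about 1 count whatever its length. Differences between genes in capture and in the assignment of reads were not checked, so the order is one of counts. In wild-type mice the order in cpm was Camta1, Rere, Park7, Vamp3, Slc45a1, Per3, Errfi1, Uts2 and Tnfrsf9. Neighbours in that order overlapped in range for Rere and Park7, for Slc45a1 and Per3, and for Uts2 and Tnfrsf9, so those pairs are not ordered beyond their spread, although Slc45a1 was above Per3 in each of the 4 mice. In knockout mice Park7 moved from the third to the seventh place, below Errfi1, whose range it overlapped even though it was the lower of the pair in all 5 mice. Slc45a1 and Vamp3 also overlapped there, with Slc45a1 above in 3 of 5 mice.

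Over the 9 libraries, the listed genes varied with one another to differing degrees, given here as Pearson correlations of log2(cpm + 1) without a test, since the libraries share genotype and depth. Park7 and Camta1 had 0.86, Park7 and Vamp3 0.76 and Park7 and Rere 0.71, and Park7 and Slc45a1 had -0.66. Per3 and Vamp3, which lie next to each other on the same strand, had -0.79. Among 11167 genes with at least 10 counts in every library, those most like Park7 were Mtrex (0.96), Bbx (0.92) and mt-Nd4l (0.91), and those most like Camta1 were Trmt6 (0.93), Aggf1 (0.91) and Samd4b (0.90). Those most like Rere were Gm44797 (0.96), Lin7a (0.94) and Ptprs (0.94). The corresponding genes were Fzd9 (0.94), Clec16a (0.93) and Eno2 (0.92) for Slc45a1, Zxdb (0.96), Sft2d3 (0.94) and Vkorc1 (0.94) for Errfi1, Nsun2 (0.97), Mpp6 (0.96) and Cacna1b (0.95) for Per3, and Zbtb1 (0.94), Actn4 (0.93) and Eif1ax (0.92) for Vamp3. The highest correlation was 0.93 or more for each of the 7 genes compared in this way. Each is the highest of 11167 correlations over only 9 libraries. How high such a maximum runs among unrelated genes was not computed, so no shared regulation is read from it.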

How the data were processed

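Midbrain libraries of 4 DJ-1+/+ (wild-type) and 5 DJ-1-/- (knockout) mice were analysed, grouped by the sample titles. Per the labels, 3' mRNA-seq libraries (QuantSeq FWD) were made from total RNA, and the submitters' processing notes name fastp 0.20.0, STAR 2.7.3a, Subread, featureCounts 2.0.0, UMI-tools 1.0.0 and the build GRCm38. The authors deposited whole UMI counts per Ensembl gene without normalization, and genes not listed for a mouse were set to 0. Strand use in counting is not given in the sources used here. Symbols and positions come from GENCODE M21, which held 26570 of the 26602 identifiers, and promoter sequences from RefSeq.

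Genes reaching 10 counts summed over all 9 libraries were tested with edgeR 4.0.16 in R 4.3.3 (TMM, glmQLFit, glmQLFTest, genotype as the only term), with Benjamini-Hochberg adjustment over 18127 genes. The standard error is the size of the log2 fold change divided by the square root of F. Single levels (cpm by library total) and shares were compared by exact two-sided permutation tests over all 126 splits, in scipy 1.17.1. Poisson and binomial intervals are exact at 95%, and like the floor of 3 counts they cover counting error only.

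The genes named are the 9 genes, the listed partners with an unadjusted p under 0.05 or that are direct paralogues or receptors, the 3 other genes within 1 Mb with the smallest p, and the 3 genes most correlated with each well-counted gene. Egf, Hdac1, Nr2f2, Calm2, Calm3, the glucose transporters and the D-box factors were named after their values were seen. The 9 genes, the lists and the tests were chosen with earlier results of these data known. Alternatives were RLE factors, library totals, DESeq2 1.42.0, a likelihood ratio test, other filters, Xist as a covariate, thinned counts (841974 per library), the replicate number as a block and each library left out. Leaving out wild-type replicates 1 and 4 together, and the alternatives for cpm and shares, were chosen after seeing the data. Pairs of libraries of one genotype had a chi-square of 1.07 to 2.27 per degree of freedom, and each library was counted as a separate sample.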

Additional observations from a re-analysis of the deposited data

Results flagged for a closer look

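Single libraries that stood apart from the rest of their genotype by Dixon's test at the 95% level were looked for in the 9 genes and their named partners, 25 genes and 50 groups in all. There were 8. At 1 in 20 groups 2.5 would arise by chance, but that rate is for continuous, normal values and does not hold for low, tied counts. No excess is read from it. Rere stood at 171 cpm in wild-type replicate 3, against 153 to 156 cpm in the other 3 wild-type mice. Its Poisson interval there, 144 to 201 cpm, covered these. Camta1 stood at 208 cpm in knockout replicate 2, the deepest library, against 224 to 228 cpm in the other 4 knockout mice. These too lay within its Poisson interval of 182 to 236 cpm. Hdac2 stood at 100.0 cpm in wild-type replicate 2, against 107 cpm in each of the other 3. Slc45a4 stood at 121 cpm in knockout replicate 4, against 82.5 to 91.1 cpm, and Slc45a3 at 6.82 cpm in knockout replicate 5, against 17.5 to 21.7 cpm. The other 3 rested on 2 to 5 counts: Tnfrsf9 at 2.33 cpm in wild-type replicate 3, Tnfsf9 at 4.00 cpm in knockout replicate 1 and Uts2r at 5.16 cpm in knockout replicate 3.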

How the results depend on the processing

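Park7 kept its direction and its call in 19 of 19 alternatives (log2 fold change -2.89 to -2.60), and so did the unadjusted call of Camta1 (-0.22 to -0.18, unadjusted p 0.00164 to 0.0319). Rere kept its call in 18 of 19. The Errfi1 log2 fold change turned to 0.040 with the replicate number as a block, to 0.030 without wild-type replicate 1 and to 0.039 without knockout replicate 5 (-0.19 to 0.039 over all single mice left out), and its difference in cpm to 0.570 and 0.906 without those mice (-4.21 to 0.906). The Tnfrsf9 difference in cpm turned to -0.119 with thinned counts and lay between -0.162 and 0.613 without single mice. The count of all genes with an unadjusted p under 0.05, 511, was 235 with DESeq2, 802 without the filter on low counts and 338 to 732 with 1 mouse left out (338 without knockout replicate 2). The count after adjustment, 1, was 2 with the likelihood ratio test, 36 without the filter, 8 with the replicate block and 1 to 2 with 1 mouse left out. Within 1 Mb of Park7 the count of 3 was 2 to 5 with 1 mouse left out. Among the partners the count of 3 was 0 with DESeq2 and 0 to 5 with 1 mouse left out. With the replicate block it was 2, with 0 higher in knockout mice, so the call of Per1 was not kept there. The cause of these shifts was not tested. The labels number the mice of both genotypes but do not pair them, and deviations of same-numbered mice correlated at 0.28, -0.01, -0.24 and -0.02 over 10770 genes, so the replicate block is given here only. Uts2 could not be fitted under the filter of 10 counts in at least 4 libraries. Depth limits Tnfrsf9 and Uts2, which lay at or near the floor of 3 counts.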

Other observations

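The libraries without urotensin transcripts also had the lowest levels of several genes of cholinergic and brainstem motor neurons, a list drawn up after the urotensin counts were seen. In wild-type replicates 2 and 4 and knockout replicate 5, where Uts2 and Uts2b had no counts, 4 of 7 such genes had their 3 lowest levels of the 9 libraries. Slc18a3, the vesicular acetylcholine transporter, had 45, 22, 48 and 4 counts in wild-type mice and 71, 88, 52, 38 and 7 counts in knockout mice. Slc5a7, Prph and Calca were the other 3 genes of this kind, and Chat, Isl1 and Phox2a did not follow it. Isl1 reached 72.7 cpm in the 3 libraries, against 55.7 cpm at most in the other 6. The share of all genes with such a ranking was not computed. Levels of Slc18a3 reached 25.003 cpm at most in the 3 libraries and 39.3 cpm at least in the other 6. The libraries concerned belong to both genotypes.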
